A study of Mus musculus with 16 samples.

Results

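The 10 genes described here are the Toll-like receptors Tlr1, Tlr2, Tlr3, Tlr4, Tlr6, Tlr7, Tlr8, Tlr9 and Tlr13 with Cd14, chosen by name as rows of a table of read counts over exons that holds 24411 genes. They were followed in macrophages sorted from the brains of 8 bone marrow chimeras on the C57BL/6J strain, labelled WT. All recipients had been irradiated with 950 cGy and given donor bone marrow, so that the host cells were irradiated and the engrafted cells were not. From each brain the engrafted cells (CD451, the donor's CD45 allele) and the host microglia (CD452) were sorted, and 4 mice had received LPS at 2.5 mg/kg 12 h earlier (mice 1 to 4) while 4 were not injected (mice 5 to 8), which makes 16 libraries in 4 groups of 4. The labels name 3.5 and 9 months between transplantation and sorting without assigning them to mice, and in the study's account of this experiment the longer one applies. By that account the donors were wild-type congenic mice with the CD45.1 allele. Cells were sorted as CD11b+ with low CD45 and without Ly6C/G staining, a gate that by its markers would leave out neutrophils and Ly6C+ monocytes. Markers of both are given below.

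Toll-like receptors are membrane proteins of innate immune cells that bind conserved molecules of microbes and signal through the adaptors MyD88 and TRIF to NF-kappaB and interferon regulatory factors. TLR4, with its partner MD-2 and the co-receptor CD14, binds LPS at the cell surface, and TLR2 pairs there with TLR1 or TLR6 to bind bacterial lipopeptides. TLR3, TLR7, TLR8, TLR9 and TLR13 bind nucleic acids in endosomes, and microglia are known to carry most of the family.

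Library size was 395283 to 1203597 reads on genes. A count of 0 allows up to 3 reads, which is 2.34 to 8.73 CPM (reads scaled to a common library size by TMM) depending on the library, and limits of this kind cover counting error only. All 7 microglia markers examined had reads in every group, at a summed 17344 to 19607 CPM in host cells and 13024 to 14200 CPM in engrafted cells of unchallenged mice, and at 8160 to 9715 and 4541 to 5849 CPM after LPS. Sall1, a transcription factor that marks microglia, was at 73.9 to 353 CPM in host libraries and at 2.91 to 26.0 CPM in engrafted ones. Perivascular macrophage markers summed to 1624 to 2279 CPM in engrafted libraries and to 387 to 869 CPM in host libraries. Most of the host sum was Stab1, at 365 to 836 CPM there and 939 to 1438 CPM in engrafted libraries. Mrc1 was at 415 to 544 CPM in engrafted and 9.50 to 22.1 CPM in host libraries. Of the 11 listed genes, Cd209b was at 0 in all libraries and Lyve1 in all host libraries, with at most 5.22 CPM in engrafted ones. Cd209f and Colec12 were at 0 in engrafted libraries after LPS. The engrafted library of LPS mouse 4 stood apart, with the fewest reads, the fewest genes detected and the highest sum of 3 red blood cell genes, 4462 CPM. In sorted populations, fewer cells that express a gene and less RNA of it per cell cannot be told apart.

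A gene passed the test at an adjusted p below 0.05 (edgeR, quasi-likelihood, Benjamini-Hochberg over all genes tested), and it was called where the difference was also above 2-fold. In unchallenged mice, engrafted cells had more Tlr2 and Tlr8 and less Tlr3 than host microglia. These 3 were called among 9 members tested, where 11.0% of 8042 genes were called (6.25% higher and 4.73% lower). Tlr1, Tlr13 and Cd14 passed the test within 2-fold, all higher in engrafted cells, which makes 6 of 9 that passed, beside 27.3% of all genes. Tlr8 entered the test only through its reads in engrafted cells, so its difference is a description of which population holds the gene, and 2 of the other 8 members tested were called. The 6 that passed include Tlr8 as well. The median log2 difference of the 9 members, Tlr8 included, was 0.35, beside 0.02 over all genes tested. After LPS, Tlr3 and Tlr7 were lower in engrafted cells, 2 of 8 members tested beside Tlr8, which had its reads there in engrafted cells too, and 6 did not pass. There, 11.1% of 7843 genes were called (6.73% higher and 4.34% lower) and 17.2% passed. Under scaling by library totals the calls became 448 genes higher and 470 lower in place of 528 and 340. The medians were -0.31 for the members, Tlr8 again included, and -0.01 for all genes.

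Within the populations, LPS was followed by 3 called members of 9 in engrafted cells (Cd14 and Tlr7 rose, Tlr4 fell), where 21.5% of 7609 genes were called (10.2% higher and 11.3% lower). With Tlr2, Tlr6 and Tlr8, which rose within 2-fold, 6 of 9 passed, beside 38.7% of all genes. In host microglia 7 of 8 members tested were called (Cd14, Tlr2, Tlr6, Tlr7 and Tlr13 rose, Tlr3 and Tlr4 fell), where 18.0% of 8238 genes were called (7.66% higher and 10.4% lower). The remaining one, Tlr1, rose just under 2-fold, so that 8 of 8 passed, beside 39.7% of all genes. The members' median log2 difference between LPS and control was 0.63 in engrafted cells and 1.25 in host microglia, beside -0.01 and 0.01 over all genes. The interaction, which is the log2 LPS difference of engrafted cells minus that of host microglia, was called for Tlr2 and Tlr7 and passed the test within 2-fold for Tlr1, of 9 members tested. All 3 had a smaller rise in engrafted cells, and 4.95% of 8847 genes were called in this test (2.45% higher and 2.50% lower) while 5.88% passed. Tlr9 had too few reads for any of the 5 tests.

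**Figure D1:**
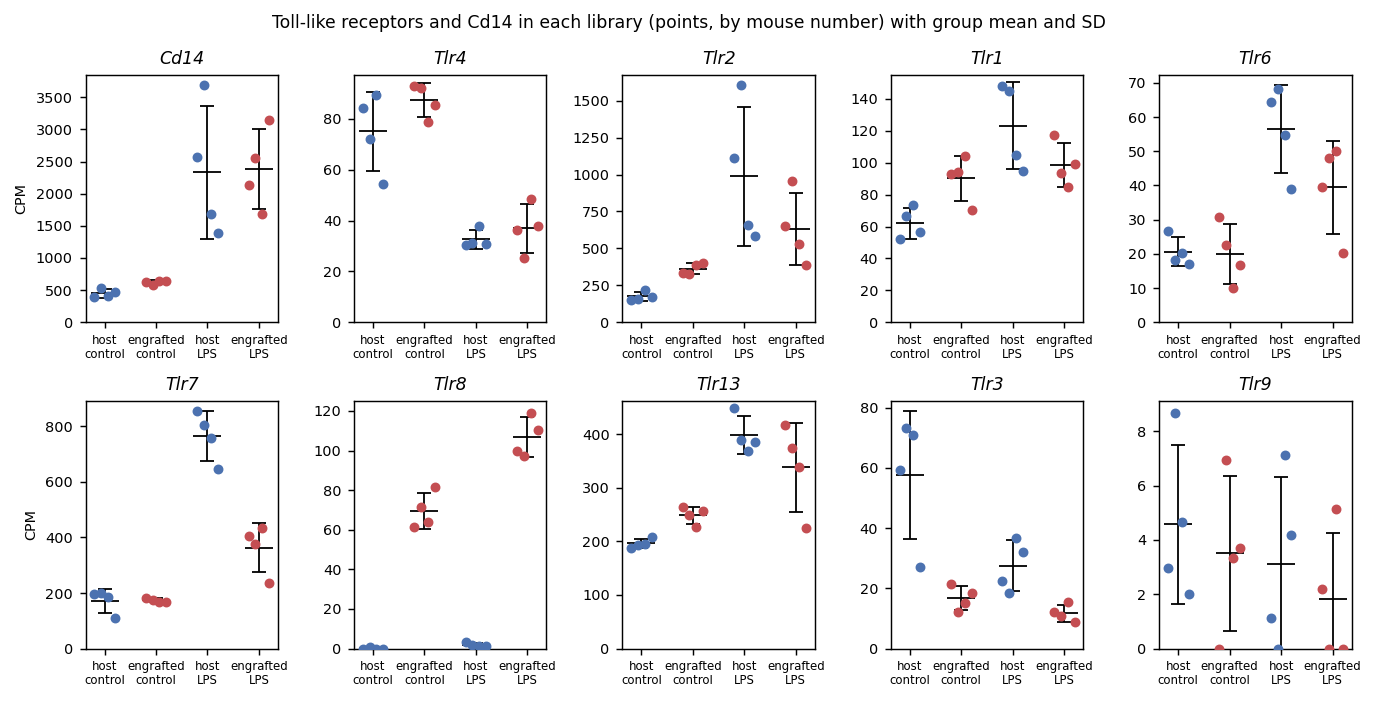
Level of each member in CPM (vertical axes, from 0, each panel with its own scale) in the 4 groups. Each point is 1 library, ordered by mouse number within a group, the bar is the group mean and the whisker 1 SD (n = 4 mice); Tlr8 stays below 4 CPM in all 8 host libraries, and Tlr7 after LPS is higher in each host library than in any engrafted one.

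The LPS receptor genes moved in opposite directions. Cd14, the co-receptor that hands LPS to TLR4 (NM_009841, chr18:36884718-36886469 in mm9), was at 394, 539.7, 401 and 465 CPM in host microglia of unchallenged mice 5 to 8. The engrafted cells of the same mice had 628, 579, 637 and 642 CPM, all above the host libraries. After LPS, mice 1 to 4 gave 2574, 3689, 1681 and 1389 CPM in host microglia and 2143, 2555, 1678 and 3146 CPM in engrafted cells. Every library of a challenged mouse was above every library of an unchallenged one (such non-overlap held for 35.1% of genes tested in engrafted cells and 35.6% in host microglia), and the populations overlapped after LPS. Cd14 rose by 2.37 (SE 0.23, adjusted p = 4.26e-08, edgeR) on the log2 scale in host microglia and by 1.94 (SE 0.20, adjusted p = 2.23e-07, edgeR) in engrafted cells. The difference between the populations before challenge was 0.47 (SE 0.12, adjusted p = 0.00491, edgeR), and it did not pass the test when all 16 libraries shared one fit (adjusted p = 0.156, edgeR). After LPS it was 0.04 with an interval of -0.54 to 0.61 (95%), so that the depth and spread leave a difference of either sign within the interval. The engrafted library with the most Cd14 was that of mouse 4, the library that stood apart.

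Tlr4, the receptor that signals for LPS (NM_021297, chr4:66488585-66507615 in mm9), had 84.5, 72.1, 89.6 and 54.4 CPM in host microglia and 93.2, 92.1, 78.8 and 85.3 CPM in engrafted cells of mice 5 to 8. In LPS mice 1 to 4 these were 30.5, 31.1, 38.0 and 30.7 CPM in host microglia and 36.2, 25.2, 48.7 and 37.8 CPM in engrafted cells. No library of a challenged mouse reached the lowest unchallenged one in either population. Tlr4 fell by 1.21 (SE 0.20, adjusted p = 6.07e-05, edgeR) on the log2 scale in host microglia and fell by 1.24 (SE 0.22, adjusted p = 0.000176, edgeR) in engrafted cells. The populations were not told apart in level, with a difference of 0.23 (-0.11 to 0.57, 95%) before and 0.18 (-0.35 to 0.72) after LPS, nor in response, with an interaction of -0.05 (-0.66 to 0.57). Ly96, which encodes the MD-2 subunit that binds LPS, was too low to test, with group means of 2.21 to 11.7 CPM.

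Tlr2, the lipopeptide receptor that works as a pair with TLR1 or TLR6 (NM_011905, chr3:83640194-83645530 in mm9), changed order between the populations. In unchallenged mice 5 to 8, host microglia had 153, 159.7, 219 and 168 CPM and engrafted cells 332, 329, 387 and 401 CPM. In LPS mice 1 to 4, host microglia had 1109, 1604, 659 and 585 CPM and engrafted cells 651, 959, 526 and 390.0 CPM. Engrafted cells thus had the higher value in 4 of 4 unchallenged mice without overlap of the groups and the lower value in 4 of 4 challenged mice, where the groups overlapped. Non-overlap was seen for 26.4% of the genes tested in unchallenged mice and 20.7% in challenged mice. The difference before challenge was 1.05 (SE 0.14, adjusted p = 2.34e-06, edgeR), about the 2-fold threshold. It was 0.98 without the host library of mouse 5, 0.99 without the engrafted library of mouse 8, 0.99 without a filter on low counts and 0.95 under scaling by library totals, and it passed the test in all 15 alternatives. After LPS the difference was -0.63 (SE 0.31, adjusted p = 0.188, edgeR) and did not pass. Among 15 alternatives it passed in 2, both within 2-fold. These were the fit with the mouse as a term, which pairs the cells of each brain (-0.60, adjusted p = 0.0162, edgeR), and the fit without a filter on low counts (-0.64, adjusted p = 0.0330, edgeR).

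The response of Tlr2 to LPS differed between the populations. Host microglia rose by 2.49 (SE 0.25, adjusted p = 5.33e-08, edgeR) and engrafted cells by 0.81 (SE 0.22, adjusted p = 0.00734, edgeR) on the log2 scale, the latter within 2-fold and with overlapping groups. The interaction was -1.68 (SE 0.36, adjusted p = 0.00459, edgeR), and it passed the test in all 22 alternatives. The Tlr2 promoter is printed, together with those of Tlr8 and Tlr3 below, because these 3 genes were called between the unchallenged populations. The sequences are from RefSeq (GRCm38.p6, another build than the count table's mm9), run from 250 bases before to 50 after the start of the gene, and were found for 7 of the 10 members. Capitals mark matches to the NF-kappaB consensus, at -173 to -163 and -8 to 2 from the start, a motif that 4.51% of all 32841 promoters of that length hold on either strand.
Tlr2 promoter, chr3:83841559-83841858, minus strand: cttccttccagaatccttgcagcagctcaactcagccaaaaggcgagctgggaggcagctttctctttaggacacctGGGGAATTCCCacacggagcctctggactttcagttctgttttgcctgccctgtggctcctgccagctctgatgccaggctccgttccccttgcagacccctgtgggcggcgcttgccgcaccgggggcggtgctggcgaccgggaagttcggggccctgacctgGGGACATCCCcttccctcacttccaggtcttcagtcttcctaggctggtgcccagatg

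**Figure D2:**
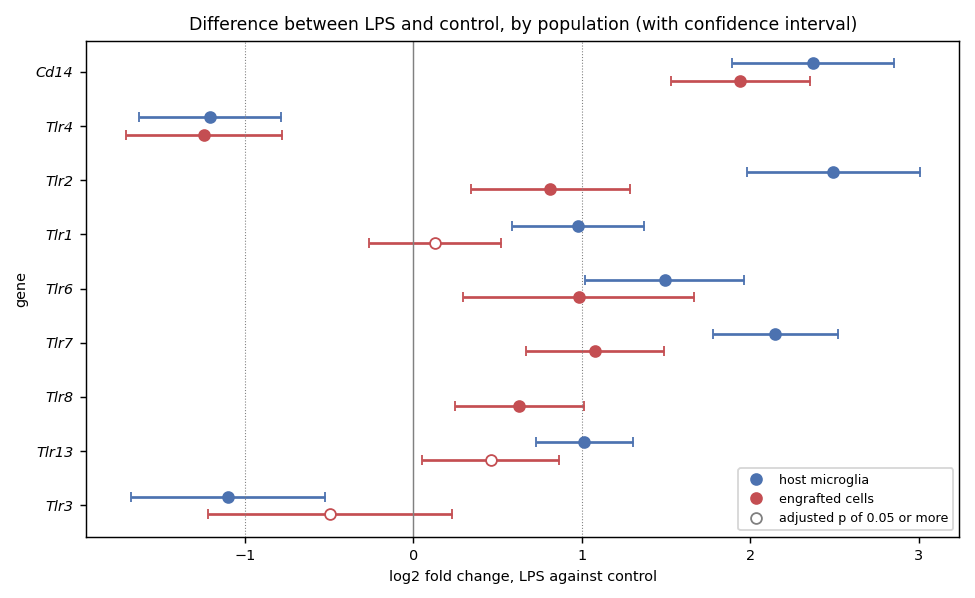
Log2 fold change between LPS and control (horizontal axis) for each member tested, in host microglia and engrafted cells. Points are edgeR estimates with 95% intervals, open where the adjusted p was 0.05 or more, and dotted lines mark 2-fold; Tlr1, Tlr2 and Tlr7 have intervals that do not meet between the populations, while those of Tlr4 nearly coincide.

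Tlr1 and Tlr6, which encode the partners of TLR2 for triacylated and diacylated lipopeptides, lie 20.4 kb apart on chromosome 5 (NM_030682 at chr5:65315919-65323938 and NM_011604 at chr5:65344334-65351273 in mm9). They share 17.4% and 17.8% of their 50-base stretches. The shared stretches lie 337 to 1129 bases from the 3′ end of the Tlr1 transcript and 333 to 1125 bases from that of Tlr6. A read wholly within them fits both genes and was dropped where only uniquely mapped reads were kept, so that both genes' values are uncertain. How many reads of these 3′ libraries came from there was not measured. Tlr1 was at 51.9 to 73.2 CPM in unchallenged host microglia, 70.5 to 104 in unchallenged engrafted cells, 95.0 to 148 in challenged host microglia and 84.5 to 117 in challenged engrafted cells. Host microglia rose without overlap, by 0.98 (SE 0.19, adjusted p = 0.000246, edgeR) on the log2 scale, which went past 2-fold without the host library of mouse 3 (1.06), 4 (1.08) or 7 (1.07) and met the threshold without that of mouse 6 (1.00). In engrafted cells the difference was 0.13 (-0.26 to 0.52, 95%; adjusted p = 0.614, edgeR). The interaction of -0.86 (SE 0.26, adjusted p = 0.0463, edgeR) lay near the threshold and did not pass in 15 of 22 alternatives, where its adjusted p reached 0.128. Engrafted cells were higher before challenge by 0.54 (SE 0.17, adjusted p = 0.0166, edgeR), which did not pass without the engrafted library of mouse 7 (adjusted p = 0.0675, edgeR) or under scaling by library totals.

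Tlr6 had fewer reads, with 20.6 ± 4.26 CPM (SD, n = 4) in host microglia and 20.0 ± 8.78 CPM in engrafted cells of unchallenged mice. After LPS the means were 56.5 ± 12.9 and 39.5 ± 13.5 CPM. Host groups did not overlap, and the rise was 1.49 (SE 0.23, adjusted p = 1.75e-05, edgeR) on the log2 scale. In engrafted cells the groups overlapped, since the library of mouse 4 had 20.4 CPM, and the difference was 0.98 (SE 0.33, adjusted p = 0.0230, edgeR). That value was 1.14 without mouse 4 and 1.32 without mouse 5. It did not pass without the engrafted library of mouse 2, 3, 7 or 8, where the adjusted p was 0.0594, 0.0699, 0.0768 and 0.0567 (edgeR). No difference between the populations passed the test before (0.06, -0.58 to 0.71, 95%) or after LPS (-0.45, -0.98 to 0.08).

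Among the endosomal receptors, Tlr7, a sensor of single-stranded RNA (NM_001290758, chrX:163742858-163768503 in mm9), separated the populations only after challenge in these tests. Mice 5 to 8 had 196, 201, 185 and 109 CPM in host microglia and 182, 176, 169 and 167 CPM in engrafted cells. In LPS mice 1 to 4 the host libraries had 855, 805, 757 and 647 CPM and the engrafted libraries 405, 376, 436 and 236 CPM. The unchallenged groups overlapped, while each challenged host library was above each challenged engrafted one and both challenged groups were above both unchallenged ones. Tlr7 rose by 2.15 (SE 0.18, adjusted p = 4.33e-09, edgeR) in host microglia and by 1.08 (SE 0.20, adjusted p = 0.000202, edgeR) in engrafted cells on the log2 scale. The rise in engrafted cells was 0.99 without mouse 3. The interaction was -1.08 (SE 0.27, adjusted p = 0.0169, edgeR). Before challenge the difference was 0.02 (-0.31 to 0.36, 95%), and after LPS it was -1.06 (SE 0.21, adjusted p = 0.00150, edgeR). Without the engrafted library of mouse 4, the lowest of its group, the difference after LPS was -0.89 and the interaction -0.93, and without the unchallenged host library of mouse 8, the lowest of its own, the interaction was -0.91. All 3 values are within 2-fold and passed the test.

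Tlr8, which neighbours Tlr7 40.6 kb away on the same strand of the X chromosome (NM_133212, chrX:163679055-163702261 in mm9) and encodes a related endosomal receptor of RNA, was read almost entirely in engrafted cells. Unchallenged mice 5 to 8 had 61.4, 71.3, 63.7 and 81.6 CPM in engrafted cells and 0, 0.962, 0 and 0 CPM in host microglia, where 1 read was counted over 4 libraries. LPS mice 1 to 4 had 99.9, 97.3, 119 and 111 CPM in engrafted cells and 3.39, 1.95, 1.19 and 1.40 CPM in host microglia. Both engrafted groups lay above both host groups. In unchallenged mice 183 reads stood against 1, a ratio of 272 after scaling with a counting interval of 48.1 to 10787 (95%), and after LPS 303 reads stood against 7, a ratio of 52.4 (25.1 to 131). The gene entered both tests through engrafted libraries alone, so no p-value is given. Engrafted cells rose after LPS within 2-fold, by 0.63 (SE 0.18, adjusted p = 0.0103, edgeR), and without overlap. In host microglia each library held 0 to 3 reads, no more than a count of 0 allows. There, 7 reads after LPS stood against 1 before, a ratio of 8.04 after scaling (counting interval 1.03 to 363, 95%). The two-sided exact permutation p was 0.0286, the smallest that test can give, and the size of a change is uncertain at this depth. The interaction of -1.80 (SE 0.84, adjusted p = 0.295, edgeR) did not pass, and it rests on these 8 host reads.

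Markers of some other blood-derived cells were also higher in the engrafted libraries. All 12 neutrophil markers summed to 276 to 1277 CPM in unchallenged engrafted cells and to 49.2 to 506 CPM after LPS, against 0 to 15.6 CPM in host libraries, where Ly6g, Mmp8, Mmp9 and Retnlg were at 0. Not every listed gene was high in engrafted cells. Ly6g was at most 2.91 CPM there, and Cxcr2 and Mpo were at 0 in unchallenged engrafted libraries. Cxcr2 reached 8.73 CPM in engrafted and 5.59 CPM in host libraries after LPS. The engrafted library of LPS mouse 2, with the lowest neutrophil sum (49.2 CPM), had Tlr8 at 97.3 CPM beside 99.9 to 119 in the other mice, and that of mouse 7, with the highest (1277 CPM), had 63.7 CPM beside 61.4 to 81.6 CPM. These are single libraries, and a relation of Tlr8 to the neutrophil sum was not tested. The 7 monocyte markers in the table summed to 204 to 334 CPM in engrafted cells before and 1161 to 2219 CPM after LPS, and to 9.35 to 25.2 CPM in host libraries. Among them Ccr2 went the other way in engrafted cells, at 86.0 to 234 CPM before and 31.2 to 61.5 CPM after LPS. Ly6c2, which rose, was at 22.3 to 40.2 and 428 to 858 CPM. Tlr8 in engrafted cells was, like the sum, higher after LPS. Conventional dendritic cell markers (6 genes) were at 13.2 to 38.9 CPM in engrafted and 0 to 7.90 CPM in host libraries. Markers of B cells and of T and NK cells overlapped between the populations at both conditions, with sums of 15.6 to 76.5 and 0 to 32.0 CPM over all libraries. Summed markers of plasmacytoid dendritic cells overlapped before challenge and were lower in engrafted cells after it, at 5.82 to 12.0 against 19.0 to 51.7 CPM. That difference was mainly Cox6a2, at 5.49 to 12.0 against 13.1 to 50.3 CPM, and no other listed gene passed 3.56 CPM there. Before challenge Klk1 was at 1.68 to 17.4 CPM in engrafted and at 0 in host libraries. Ly6d was at 1.68 to 7.42 against 0 to 0.962 CPM. The sort described above would leave out neutrophils and Ly6C+ monocytes, and the part of these markers in the Tlr8 difference was not tested. The Tlr8 promoter holds 2 matches to a short C/EBP motif (TTGCNNAA on either strand, in capitals, at -29 to -22 and 19 to 26), which 10.8% of promoters hold.
Tlr8 promoter, chrX:167264280-167264579, minus strand: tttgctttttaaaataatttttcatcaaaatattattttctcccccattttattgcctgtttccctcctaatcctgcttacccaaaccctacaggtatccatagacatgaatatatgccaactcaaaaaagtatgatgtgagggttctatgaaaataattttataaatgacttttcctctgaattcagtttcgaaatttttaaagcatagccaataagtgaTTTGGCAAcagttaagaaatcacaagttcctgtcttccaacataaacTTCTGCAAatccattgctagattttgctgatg

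**Figure D3:**
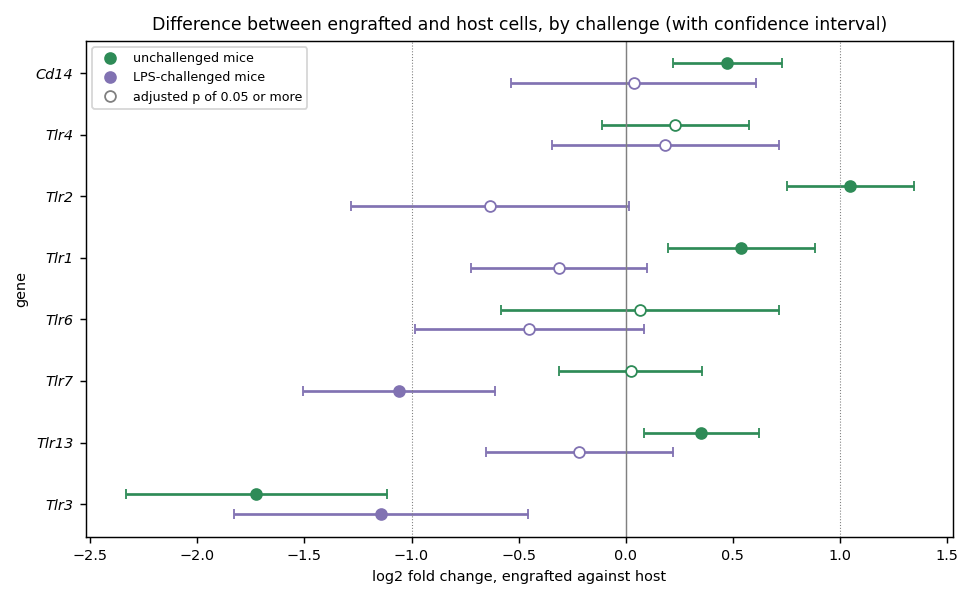
Log2 fold change between engrafted and host cells (horizontal axis) in unchallenged and in LPS-challenged mice, with edgeR estimates, 95% intervals, and open points where the adjusted p was 0.05 or more. Tlr8 is left out, since its host libraries hold 0 to 3 reads each, and Tlr9 was not tested. By its interval Tlr3 lies below 0 in both, and Tlr7 in challenged mice alone. Tlr1, Tlr2, Tlr13 and Cd14 have intervals above 0 in unchallenged mice alone.

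Tlr3, the sensor of double-stranded RNA that signals through TRIF (NM_126166, chr8:46481019-46495893 in mm9), was the member that engrafted cells had less of both before and after challenge. Host microglia of mice 5 to 8 had 59.3, 73.1, 70.9 and 27.2 CPM and engrafted cells 21.5, 12.2, 15.1 and 18.5 CPM. In LPS mice 1 to 4 the host libraries had 22.6, 18.5, 36.8 and 32.1 CPM and the engrafted ones 12.1, 10.8, 15.4 and 8.73 CPM. Engrafted cells were lower in 8 of 8 mice, and the groups did not overlap at either condition, although the highest engrafted library before challenge (21.5 CPM) came close to the host library of mouse 8. The difference was -1.73 (SE 0.30, adjusted p = 5.79e-05, edgeR) before challenge and -1.14 (SE 0.33, adjusted p = 0.0199, edgeR) after it on the log2 scale. The second value did not pass without the engrafted library of mouse 1 or 2 (adjusted p = 0.0589 and 0.0654, edgeR) or the host library of mouse 3 or 4 (0.0803 and 0.0535), with log2 values of -1.31 to -0.97 over all the alternatives. Engrafted libraries held 3 to 21 reads of the gene each, and 1 of 4 reached the filter's level after LPS.

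In host microglia Tlr3 fell by 1.10 (SE 0.28, adjusted p = 0.00291, edgeR) on the log2 scale after LPS with overlapping groups, a change within 2-fold without the host library of mouse 2 (-0.93), 6 (-0.97) or 7 (-0.97). In engrafted cells the difference was -0.50 (-1.22 to 0.23, 95%; adjusted p = 0.270, edgeR), and the interaction was 0.59 (-0.41 to 1.58). The Tlr3 promoter holds 1 match to the NF-kappaB consensus at -211 to -202 and 1 to the short C/EBP motif at -95 to -88, both in capitals.
Tlr3 promoter, chr8:45410331-45410630, minus strand: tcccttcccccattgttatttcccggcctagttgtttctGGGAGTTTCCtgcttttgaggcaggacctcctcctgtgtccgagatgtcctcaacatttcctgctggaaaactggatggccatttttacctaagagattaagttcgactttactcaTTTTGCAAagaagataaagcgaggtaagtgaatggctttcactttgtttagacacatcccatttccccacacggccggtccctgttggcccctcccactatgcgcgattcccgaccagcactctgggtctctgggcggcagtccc

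Tlr13, the mouse receptor of bacterial ribosomal RNA (NM_205820, chrX:103338614-103355832 in mm9), had 188, 192, 196 and 209 CPM in host microglia and 264, 249, 226 and 256 CPM in engrafted cells of mice 5 to 8. In LPS mice 1 to 4 these were 449, 389, 369 and 385 and 418, 374, 338 and 224 CPM. Engrafted cells were higher in 4 of 4 unchallenged and lower in 4 of 4 challenged mice, and the groups overlapped after LPS, where the engrafted library of mouse 4 was the lowest. The difference before challenge was 0.35 (SE 0.13, adjusted p = 0.0450, edgeR) and did not pass in 9 of 15 alternatives. Host microglia rose by 1.02 (SE 0.14, adjusted p = 4.57e-06, edgeR), at the 2-fold threshold, and were within it without the host library of mouse 1 (0.96), 5 (0.997) or 6 (0.999). The difference in engrafted cells was 0.46 (SE 0.19, adjusted p = 0.0679, edgeR), and the interaction of -0.56 (SE 0.24, adjusted p = 0.179, edgeR) did not pass. In 3 of 14 alternatives the difference in engrafted cells passed, within 2-fold. These were without the engrafted library of mouse 4 (0.62, adjusted p = 0.00201, edgeR), one fit of all 16 libraries (adjusted p = 0.0333, edgeR) and DESeq2 (adjusted p = 0.0499).

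Tlr9, the sensor of unmethylated CpG DNA (NM_031178, chr9:106124929-106129207 in mm9), was near the limit of detection throughout. The 4 groups held 19, 8, 10 and 6 reads in all (host and engrafted before, host and engrafted after LPS), at means of 4.58 ± 2.93, 3.50 ± 2.84, 3.11 ± 3.21 and 1.83 ± 2.43 CPM (SD, n = 4). A difference between the groups was not detectable at this depth, with two-sided exact permutation p-values of 0.486 to 0.629 over 4 comparisons.

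**Figure D4:**
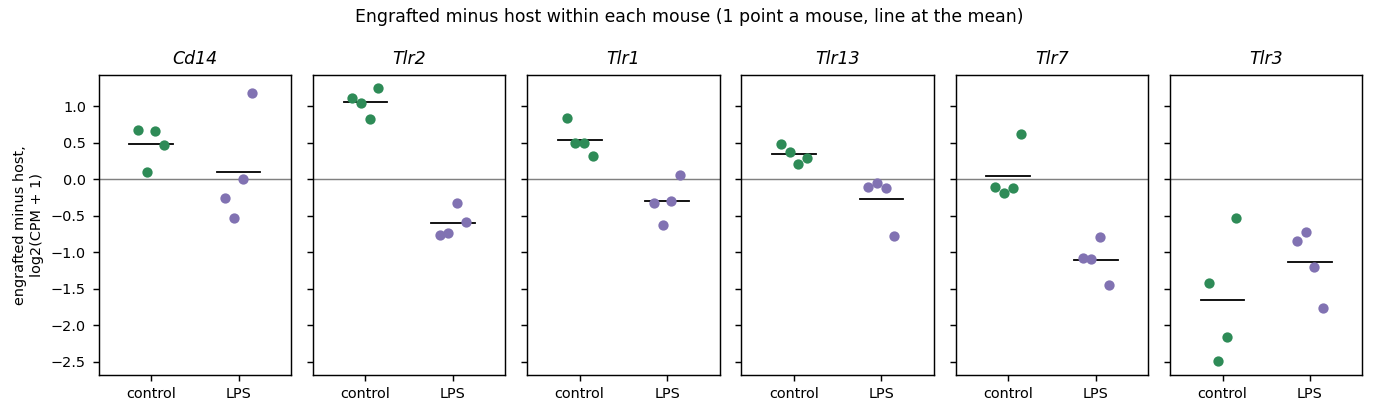
Difference between engrafted and host cells of the same brain (vertical axis, log2 of CPM + 1, engrafted minus host) for 6 members. Each point is 1 mouse, 4 unchallenged and 4 challenged, and the line is the mean; Tlr2 and Tlr13 lie above 0 in all 4 unchallenged mice and below 0 in all 4 challenged mice, and Tlr3 lies below 0 in all 8.

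The order of the group means was the same for Tlr1, Tlr2, Tlr7 and Tlr13, from challenged host microglia at the top through challenged and unchallenged engrafted cells to unchallenged host microglia. Neighbours in that order overlapped except the upper 3 groups of Tlr7 and the lower pair of Tlr2 and Tlr13. Tlr4 had both unchallenged groups above both challenged ones and Cd14 the reverse, with overlap of the populations at the upper level in both. Among the 8847 genes of the fit on all 16 libraries, the 3 closest by the root mean square difference of centred log2(CPM + 1) were Cd72 (0.34), Map3k8 (0.35) and Kri1 (0.40) for Tlr2, Serp1 (0.30), Map3k8 (0.31) and Zfp593 (0.34) for Cd14 and Mapk14 (0.23), Ptpra (0.25) and Nagk (0.26) for Tlr4. For Tlr7 they were Gnl3 (0.27), Ugcg (0.29) and Sla (0.30), for Tlr13 Larp1 (0.17), Zfp777 (0.18) and Psme2b (0.18) and for Tlr6 March1 (0.30), Rbm26 (0.36) and Gm17066 (0.37). The nearest genes of Tlr8 were farther off, at Serpinb8 (0.69), Plbd1 (0.71) and Mgst1 (0.73). Map3k8, a kinase that carries Toll-like receptor signals to ERK, stood on the lists of both Tlr2 and Cd14.

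Of the other mouse receptors of the family, Tlr12, which binds profilin of parasites, was the one with enough reads to test. It had 68.6 ± 15.0 CPM in host microglia and 48.5 ± 6.91 CPM in engrafted cells before challenge (SD, n = 4). After LPS the means were 8.78 ± 1.78 and 4.84 ± 3.74 CPM, and the challenged and unchallenged groups did not overlap. Challenged libraries held 0 to 8 reads each, and the gene entered the LPS tests through the unchallenged libraries (1 challenged host library and 0 engrafted ones were at the filter's level), so these differences are given as levels without a test. Tlr5 and Tlr11, the receptors of flagellin and profilin, had group means of 0 to 2.48 CPM.

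The rest of the pathway was read from 7 lists of 62 genes. Of these, 50 were tested in engrafted cells, where 14 rose and 4 fell past 2-fold after LPS, beside 10.2% and 11.3% of all genes. In host microglia 51 were tested, where 11 rose and 3 fell, beside 7.66% and 10.4%. Of these calls, 2 in engrafted cells (Ikbke and Cd36) and 3 in host microglia (Ikbke, Irak3 and Il12b) were for genes that entered the test through libraries of 1 group alone. Between the populations 3 were higher and 5 lower of 49 in unchallenged engrafted cells, beside 6.25% and 4.73% of all genes. Of the 3, 1 (Cd36) entered the test through engrafted libraries alone. After LPS 6 were higher and 4 lower of 50, beside 6.73% and 4.34%. The interaction was called higher for 3 and lower for 1 of 53, beside 2.45% and 2.50%. The lower call was again Cd36, which had its reads in unchallenged engrafted cells. All induced cytokines tested rose, 4 of 4 in engrafted cells and 6 of 6 in host microglia, where Il12b was at the filter's level in challenged libraries alone. Ccl5, a chemokine for T cells, rose by 6.47 (SE 0.32, adjusted p = 1.66e-11, edgeR) in engrafted cells and 3.68 (SE 0.34, adjusted p = 2.34e-08, edgeR) in host microglia on the log2 scale, with an interaction of 2.79 (SE 0.49, adjusted p = 0.000496, edgeR). Tnf, the cytokine that spreads the inflammatory signal, was lower in engrafted cells, with a log2 difference of -1.55 (SE 0.16, adjusted p = 1.43e-08, edgeR) before and -1.72 (SE 0.27, adjusted p = 0.000162, edgeR) after LPS.

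Of 5 transcription factors of the pathway, Irf7, which drives type I interferon genes below TLR7 and TLR9, was higher in engrafted cells by 1.09 (SE 0.14, adjusted p = 1.25e-06, edgeR) before and 2.79 (SE 0.24, adjusted p = 1.40e-07, edgeR) after LPS, and its interaction was 1.70 (SE 0.28, adjusted p = 0.000308, edgeR). That direction is opposite to the interaction of Tlr7 in the same fit. The monocyte marker sum given above was likewise higher after LPS in engrafted cells (204 to 334 before, 1161 to 2219 CPM after), though Ccr2 was lower. In host libraries the sum stayed at 9.35 to 25.2 CPM. The part of these markers in the values of Irf7, Ccl5 and the other pathway genes was not tested. Among adaptors and kinases, 2 of 16 tested in engrafted cells and 1 of 15 in host microglia rose past 2-fold, near the 10.2% and 7.66% of all genes. Ikbke, the kinase that activates interferon regulatory factors, was one of them in both populations, but held 1 to 6 reads per unchallenged library and entered the tests through the challenged ones alone, so it is given as levels. It was at 1.68 to 9.27 CPM before and 122 to 264 CPM after LPS in engrafted cells, and at 1.48 to 4.67 and 26.5 to 131 CPM in host microglia. Myd88, the adaptor of the Toll-like receptors here other than Tlr3, rose by 1.26 (SE 0.19, adjusted p = 2.71e-05, edgeR) and, within 2-fold, by 0.76 (SE 0.17, adjusted p = 0.000912, edgeR) in the same order. Among inhibitors 4 of 8 rose past 2-fold in engrafted cells and 3 of 8 in host microglia, beside the same 10.2% and 7.66%, with Tnfaip3, a deubiquitinase that limits NF-kappaB, at 2.47 (SE 0.30, adjusted p = 2.13e-06, edgeR) and 2.51 (SE 0.29, adjusted p = 4.03e-07, edgeR).

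Unc93b1, the chaperone that brings the endosomal receptors to their compartment, fell within 2-fold after LPS, with a log2 difference of -0.78 (SE 0.18, adjusted p = 0.00191, edgeR) in engrafted cells and -0.94 (SE 0.17, adjusted p = 0.000127, edgeR) in host microglia. Of 9 endosomal proteases and nucleases tested, Ctsl, a protease that trims endosomal receptors, was lower in engrafted cells, with a log2 difference of -1.91 (SE 0.11, adjusted p = 8.62e-13, edgeR) before and -1.72 (SE 0.19, adjusted p = 3.22e-06, edgeR) after LPS. Before challenge 7 of the 9 passed the test, beside 27.3% of all genes, with Ctsl and 5 more lower and Dnase2a, an acid nuclease, higher by 0.36 (SE 0.13, adjusted p = 0.0445, edgeR). The 5 include Rnaset2a and Rnaset2b, which overlap on the same strand of chromosome 17 in the table, so that their values are uncertain and not separate observations. Pld4, a nuclease that degrades ligands of TLR9 and TLR7, fell by 1.12 (SE 0.19, adjusted p = 0.000101, edgeR) in engrafted cells and fell by 1.95 (SE 0.16, adjusted p = 3.00e-09, edgeR) in host microglia after LPS, and the first value was -0.99 without the engrafted library of mouse 2. Among co-receptors at the cell surface, Cd36, a scavenger receptor that helps TLR2 with TLR6, was at 23.5 to 80.0 CPM in unchallenged engrafted cells and at 0 to 4.75 CPM in the other 3 groups, and the gene entered the tests through that group alone. Cd180, a homologue of TLR4, was at 25.2 to 46.2 CPM before and 2.79 to 11.9 CPM after LPS in host microglia, and at 11.7 to 20.9 and 1.10 to 8.73 CPM in engrafted cells, without overlap in either population. Challenged libraries held 1 to 10 reads of it, so the difference is given as levels.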

How the data were processed

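Poly(A) RNA of the sorted cells was made into 3′ libraries by a MARS-seq variant. The authors mapped reads to mm9 (HISAT 0.1.5 per the labels), kept those mapped uniquely and deposited raw counts over RefSeq exons (HOMER), without normalization; handling of PCR duplicates is not given in the sources used here. In R 4.3.3, edgeR 4.0.16 was run with filterByExpr (minimum count 10, minimum total 15), TMM and quasi-likelihood tests (prior count 0.125), on the 8 libraries of each comparison or all 16 for the interaction. Members under the filter had a two-sided exact permutation test (smallest p 0.029). The 24 replicate pairs differed by 1.98 to 8.64 times counting noise.

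Libraries with the same number come from the same mouse (r after removing group means, -0.034 to 0.194; above 0.1 in 3 of 8 mice). As the study's methods state no mouse term, that block was an alternative, beside RLE, library totals, DESeq2 1.42.0, other filters, one fit of all libraries and each library left out. Members and lists were chosen with earlier results of these data known. Of each pathway list at most 3 called genes per comparison, those with the largest change, were eligible to be named; Ly96, Unc93b1, Tlr5, Tlr11 and Myd88 in host microglia were added for their role. The genes nearest to Tlr3 are not reported here.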

Additional observations from a re-analysis of the deposited data

Results flagged for a closer look

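Within groups of 4, 2 values among the 40 groups examined stood far from the other 3, where chance gives about 1 in 20. Tlr4 in challenged host microglia was 38.0 CPM in mouse 3 and 30.5 to 31.1 CPM in the other mice. Tlr8 in unchallenged host microglia was 0.962 CPM in mouse 6, which is 1 read, and 0 in the others.

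The LPS response differed between the populations, by the interaction test of edgeR, for Tlr1 (log2 -0.86), Tlr2 (log2 -1.68) and Tlr7 (log2 -1.08), each with the smaller rise in engrafted cells. The adjusted p of Tlr1 was 0.0463, and it passed in 7 of 22 alternatives, while Tlr2 and Tlr7 passed in 22 of 22.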

How the results depend on the processing

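Of 691 values of members under the alternatives, 648 kept their direction and whether they were called, 19 lost a call, 9 gained one and 15 changed sign. By the adjusted p alone, whatever the fold, 651 kept their side of 0.05, 35 no longer passed (15 of them the interaction of Tlr1 and 9 Tlr13 between unchallenged populations) and 5 newly passed. Of 734 values of other pathway genes, 710 kept whether they were called and 24 lost a call. Members called were 1 in place of 3 in both comparisons of engrafted with host cells under a minimum of 10 reads in each library, with 6 members left to test, and 1 to 2 in the interaction with single libraries left out (1 without the engrafted library of mouse 4 or the host library of mouse 8). The replicate block (mouse as a term) gave 3, 3 and 2 members called where it applied (both comparisons of populations and the interaction) and changed no call. By the adjusted p alone, Tlr2 between challenged populations newly passed with the block (-0.60, adjusted p = 0.0162, edgeR), within 2-fold. The LPS comparisons hold different mice on each side, so no block was possible there.

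The sign changes were all among values that did not pass the test. Tlr6 between unchallenged populations was -0.019 under library totals, -0.062 with the replicate block and -0.29 to 0.27 with single libraries left out. Tlr7 there was -0.069 under library totals, -0.035 without a filter and -0.15 to 0.10 with libraries left out. Cd14 between challenged populations was -0.13 under library totals, -0.018 with at least 10 reads in every library and -0.15 to 0.35 with libraries left out, and the interaction of Tlr4 was -0.23 to 0.12. The cause was not tested.

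Over all genes, calls were 1454 without a filter and 402 with at least 10 reads in every library in place of 883 (unchallenged populations), 1352 and 381 in place of 868 (challenged populations), and with at least 10 reads 821 in place of 1637 (LPS in engrafted cells), 871 in place of 1484 (LPS in host microglia) and 249 in place of 438 (interaction). Library totals moved the higher and lower calls between challenged populations from 528 and 340 to 448 and 470, those between unchallenged populations from 503 and 380 to 443 and 444, those after LPS in engrafted cells from 779 and 858 to 689 and 950 and those of the interaction from 217 and 221 to 181 and 245. The median of all genes between challenged populations moved from -0.01 to -0.16.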
